A study of Mus musculus with 24 samples.

Results

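The proteasome genes were followed in forebrain RNA of TgCRND8 mice and their littermates. They were taken as the genes whose symbol is Psma, Psmb, Psmc, Psmd, Psme or Psmg followed by digits. Each gene was read from its brightest probe set among those mapped to no other symbol, which gave 45 genes of the 18193 measured. TgCRND8 mice carry a transgene for human APP with the Swedish and Indiana mutations (labelled APPSwe/Ind), and the controls were littermates without it. There were 6 groups, TgCRND8 and control at 70, 80 and 150 days of age, with 4 mice per group and 1 array per mouse. The labels do not say which promoter drives the transgene. The tissue is bulk forebrain, so values average over all of its cell types.

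The proteasome is the protease complex that degrades ubiquitin-tagged proteins in the cytosol and nucleus. Its core is a barrel of stacked rings: the outer rings are built from alpha subunits (Psma genes), which gate the entrance, and the inner rings from beta subunits (Psmb genes), of which Psmb5, Psmb6 and Psmb7 carry the proteolytic sites. A regulatory cap, made of ATPases (Psmc genes) that unfold substrates and non-ATPase subunits (Psmd genes) that bind and trim ubiquitin chains, sits on the barrel. Interferon gamma exchanges the catalytic subunits for Psmb9, Psmb10 and their partner, giving the immunoproteasome, which makes peptides for MHC class I, and it also induces the activator subunit Psme1. Post-mitotic neurons rely on the complex for synaptic protein turnover, and its activity has been studied in relation to protein aggregates in Alzheimer disease.

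Values are log2 signals, so a difference of 1 is a doubling. Each array's upper quartile lay between 6.3 and 6.44 and its lower quartile between 3.15 and 3.32. Of the 45 genes, 38 read above the upper quartile in all 24 arrays. Psma8, a testis alpha subunit, lay below the lower quartile in 12 arrays and Psmb11, the thymus subunit, in 22, so their differences describe signals near the bottom of the array. Psmb9 stayed between the quartiles in all arrays, with a mean of 3.94, below the array medians of 4.28 to 4.38. Markers of brain cell types were present: all 7 neuron and all 6 astrocyte markers measured read above the upper quartile in every array. The 3′ minus 5′ signal of Actb, a sign of RNA integrity, was 0.663 to 0.877 over all arrays. The spread between mice of 1 group was narrow, with a median residual SD of 0.124 log2 for the 45 genes beside 0.14 for all genes. The labels call the replicates biological. The number of arrays limits the precision.

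Across genotypes, the proteasome genes stayed within a narrow band. At day 70 the 45 differences ran from -0.16 to 0.13 log2 (22 higher and 23 lower in TgCRND8, median -0.00384; all genes -0.00309). At day 80 they ran from -0.12 to 0.14 (23 higher, 22 lower, median 0.00462; all genes 0.00218). At day 150 they ran from -0.18 to 0.25 (24 higher, 21 lower, median 0.0131; all genes 0.000435). No subunit class, from ring to cap, was shifted as a whole at any of the 3 ages by more than 0.114 in its median, a value that belongs to the 3 activator genes at day 150.

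No proteasome gene passed the threshold, a Benjamini-Hochberg adjusted p under 0.05 by limma over all genes, at any age. Of all genes, 0% passed at day 70, 0% at day 80 and 0.121% at day 150. At an unadjusted p under 0.05 by limma, 0 of the 45 were called at day 70 (3.25% of all genes), 0 at day 80 (3.77%) and 1 at day 150, which is 2.22% beside 4.38% of all genes. For the mean over the 3 ages 0 passed (0.0385% of all genes), and 1 had an unadjusted p under 0.05 (3.16% of all genes). These misses do not show that the genotypes are alike. The 95% intervals of the 45 genes lay within -0.36 and 0.38 at day 70, -0.42 and 0.35 at day 80, and -0.39 and 0.41 at day 150, so a doubling or halving lay outside the interval of each of the 45 genes at each age. For the mean over ages all intervals lay within -0.20 and 0.23.

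**Figure D1:**
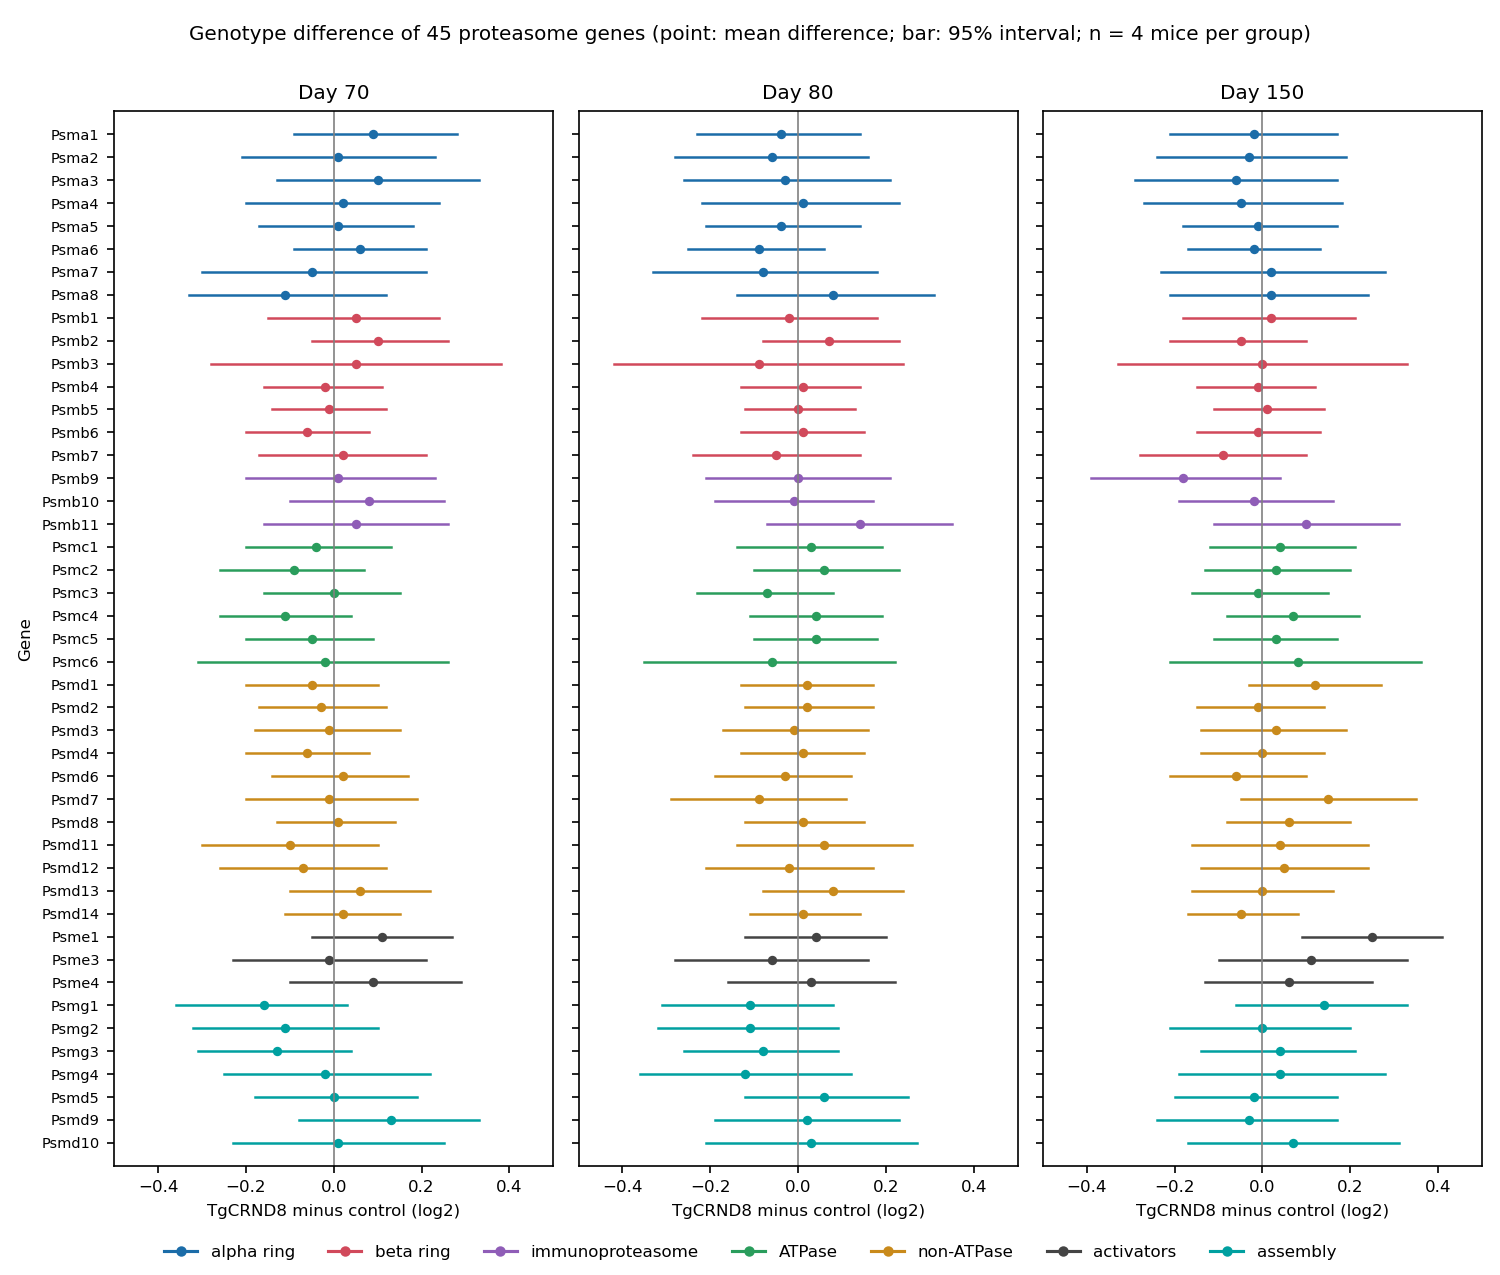
Difference between TgCRND8 and control (log2, x axis) for each of the 45 genes (y axis, coloured by class) at days 70, 80 and 150; points are mean differences over 4 mice per group and bars are 95% intervals from limma. At each age the points lie between -0.18 and 0.25, and Psme1 at day 150 is the only gene whose bar, from 0.09 to 0.41, does not reach 0.

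Psme1 was the member that differed most. It codes for the alpha subunit of the ring-shaped activator that opens the core without ATP and favours peptide production for antigen presentation. In the day 150 controls it read 7.48, 7.44, 7.58 and 7.57. In TgCRND8 mice of that age it read 7.74, 7.66, 7.9 and 7.78. The groups did not overlap, with the lowest TgCRND8 array above the highest control. The difference was 0.25 log2 (standard error 0.0776; 95% interval 0.09 to 0.41; 1.19-fold; n = 4 per group). By limma the unadjusted p was 0.00335, the 88th smallest of all genes, and the adjusted p was 0.687, so Psme1 did not pass. The exact permutation p, two-sided, was 0.0286, the smallest that 4 against 4 arrays allow. Such non-overlap with TgCRND8 above was seen for 1 of the 45 genes at day 150 (1.53% of all genes), and with TgCRND8 below for 0 (1.46%).

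The earlier ages did not repeat that separation. At day 70 Psme1 read 7.58, 7.56, 7.63 and 7.75 in controls and 7.81, 7.69, 7.74 and 7.69 in TgCRND8, a difference of 0.11 (standard error 0.0776). At day 80 it read 7.51, 7.64, 7.78 and 7.71 in controls and 7.51, 7.83, 7.79 and 7.68 in TgCRND8, a difference of 0.04. The groups overlapped at both ages, as they did for every other member: no gene of the 45 had non-overlapping groups at day 70 (1.1% of all genes above, 1.26% below) or at day 80 (0.846% above, 0.401% below). The control mean of day 150 (7.52) was the lowest of the 6 group means, below controls of day 70 (7.63) and day 80 (7.66), while TgCRND8 read 7.74, 7.70 and 7.77 at days 70, 80 and 150. Averaged over ages Psme1 was 0.13 higher (standard error 0.0448; unadjusted p = 0.00644, adjusted p = 1 by limma). Set against the average of the earlier ages, its genotype difference at day 150 was 0.18 larger (95% interval -0.02 to 0.37; adjusted p = 0.865 by limma) and did not pass.

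**Figure D2:**
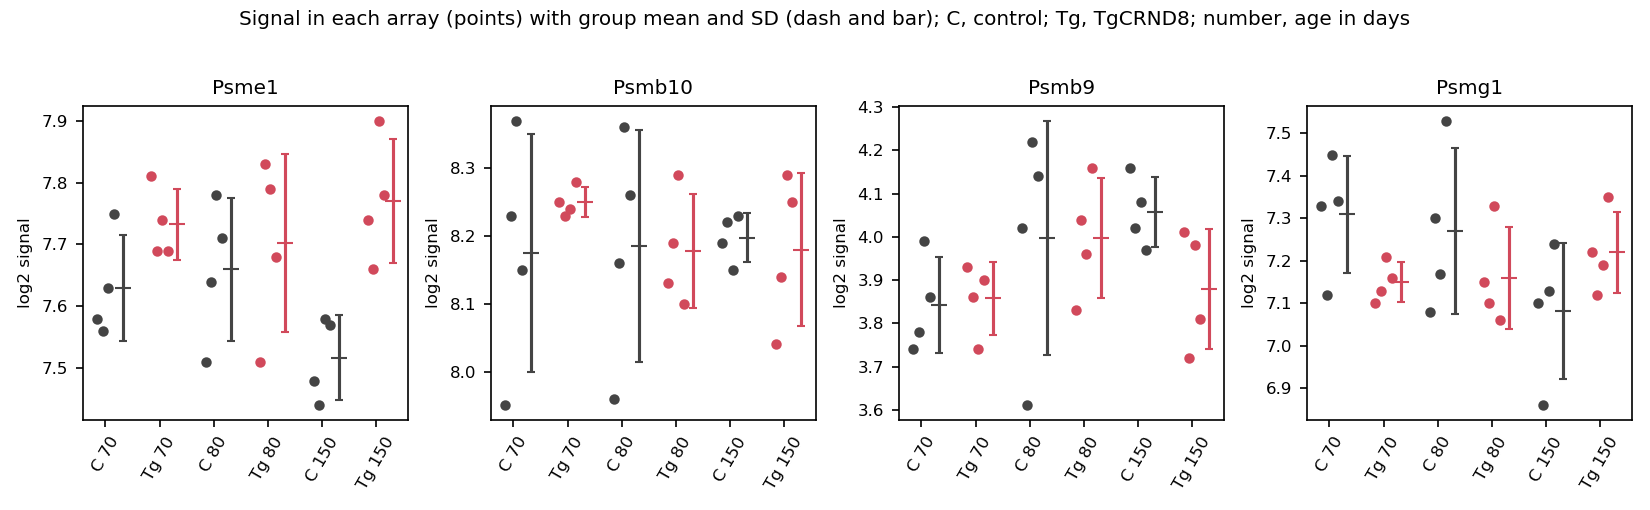
Log2 signal (y axis) of Psme1, Psmb10, Psmb9 and Psmg1 in each of 24 arrays (points), by genotype and age (x axis), with the group mean and SD beside the points (dash and bar). For Psme1 the 4 TgCRND8 arrays of day 150 lie between 7.66 and 7.9, above the 4 controls of that age at 7.44 to 7.58, and the other groups overlap.

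Markers of microglia and the astrocyte marker Gfap were higher along with Psme1 at day 150. The mean signal of the 6 microglia markers measured was 7.01 to 7.21 in the day 150 controls and 7.44 to 7.75 in TgCRND8, with all 6 higher and Tyrobp (1.31) and C1qa (0.54) past the threshold. Of these markers 5 read above the upper quartile in every array. At days 70 and 80 the ranges of the marker mean overlapped between genotypes. The mean of the 6 astrocyte markers was 9.02 to 9.2 in the day 150 controls and 9.28 to 9.43 in TgCRND8, without overlap. Of these 6 markers 2 were higher and 4 lower, and Gfap (1.42; adjusted p = 2.14e-06 by limma) was the 1 that passed. The other higher marker, Aqp4, differed by 0.16, and the median of the 6 was -0.0112. The shift of the astrocyte mean thus came mostly from Gfap. In bulk tissue more cells of a type and more RNA per cell cannot be told apart, and the part of microglia and astrocytes in the Psme1 difference was not tested.

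The other activators differed less. Psme3, the nuclear activator of the same family, was 0.11 higher at day 150, -0.06 at day 80 and -0.01 at day 70. Psme4, a large single-chain activator, was 0.06 higher at day 150, 0.03 at day 80 and 0.09 at day 70. Of the 3 activator genes all were higher at day 150, with a median of 0.114; by limma with Benjamini-Hochberg adjustment 0 passed, and Psme1 was the 1 at an unadjusted p under 0.05. Psme2, the partner of Psme1, had no probe set mapped to it alone and was not analysed here.

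The immunoproteasome subunits Psmb9 and Psmb10 were both lower in TgCRND8 at day 150, by -0.18 and -0.02. The thymus subunit Psmb11, listed with them, was 0.10 higher. Of these 3 genes 0 passed the threshold by limma and 0 had an unadjusted p under 0.05. Psmb10, an inducible catalytic subunit, read 8.19, 8.22, 8.15 and 8.23 in the day 150 controls. In TgCRND8 of that age it read 8.04, 8.14, 8.29 and 8.25, and the TgCRND8 arrays spread around the controls on either side. The difference was -0.02 (95% interval -0.19 to 0.16; adjusted p = 0.999 by limma). It was 0.08 at day 70 (95% interval -0.10 to 0.25) and -0.01 at day 80. At day 70 the controls held the widest values, 7.95, 8.23, 8.37 and 8.15, around a tight TgCRND8 group at 8.25, 8.23, 8.24 and 8.28. Psmb10's day 80 arrays read 7.96, 8.16, 8.36 and 8.26 in controls and 8.13, 8.19, 8.29 and 8.1 in TgCRND8. The groups overlapped there too.

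Psmb9, the catalytic subunit encoded in the MHC region, was lower in TgCRND8 at day 150, opposite in sign to Psme1. Its arrays read 4.16, 4.02, 4.08 and 3.97 in controls and 4.01, 3.72, 3.98 and 3.81 in TgCRND8. The groups overlapped at 1 control and 2 TgCRND8 arrays. The difference was -0.18 (standard error 0.104; 95% interval -0.39 to 0.04; adjusted p = 0.999 by limma). At days 70 and 80 it was 0.01 and 0.00. The control level itself was 3.84 at day 70 and 4.06 at day 150, a difference of 0.21 with age, while TgCRND8 read 3.86 and 3.88. Psmb9's day 70 arrays read 3.74, 3.78, 3.99 and 3.86 in controls and 3.93, 3.86, 3.74 and 3.9 in TgCRND8. The day 80 arrays read 4.02, 3.61, 4.22 and 4.14 in controls and 3.83, 4.04, 3.96 and 4.16 in TgCRND8. At both ages the groups overlapped. Psmb11, which belongs to the thymus proteasome, had the smallest unadjusted p of the members at day 80 (0.14 higher; unadjusted p = 0.174, adjusted p = 1 by limma). Its day 80 arrays read 2.95, 2.95, 2.85 and 3.14 in controls and 2.95, 3.45, 2.99 and 3.07 in TgCRND8, and the TgCRND8 array at 3.45 stood above all the others. Without that array, TgCRND8 number 2, the difference was 0.03, and over all arrays left out in turn it was 0.03 to 0.2. Psmb11's day 70 arrays read 2.91, 3, 3.04 and 2.82 in controls and 3.15, 2.93, 2.82 and 3.06 in TgCRND8. The day 150 arrays read 3.07, 3.08, 2.95 and 2.81 in controls and 3.25, 3.1, 3.06 and 2.91 in TgCRND8. These groups overlapped, near the lower quartile of the arrays.

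Promoters are printed for 3 members that the results turn on, 250 bases before to 50 after the start of transcription, from RefSeq (GRCm38.p6). Psme1 is shown because it differed most between genotypes, and Psmb3 and Psma2 because they were among the members that varied together between arrays, as described further on. Psme1 lies at chr14:55578244-55578543, Psmb3 at chr11:97703184-97703483 and Psma2 at chr13:14612992-14613291, all on the plus strand. Capitals mark a match to the core of the interferon-stimulated response element, lying on the opposite strand in Psme1 (TTTCGCTTTC) and Psmb3 (TTTCACTTTC), and in Psma2 a match to the core of the nuclear respiratory factor motif (GCGCATGCGC).
Psme1: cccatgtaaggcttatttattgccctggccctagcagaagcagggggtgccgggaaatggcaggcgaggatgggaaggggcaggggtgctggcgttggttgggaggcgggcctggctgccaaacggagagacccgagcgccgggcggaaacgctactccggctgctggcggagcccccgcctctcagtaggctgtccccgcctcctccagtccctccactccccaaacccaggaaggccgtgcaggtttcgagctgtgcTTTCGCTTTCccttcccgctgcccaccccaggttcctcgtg
Psmb3: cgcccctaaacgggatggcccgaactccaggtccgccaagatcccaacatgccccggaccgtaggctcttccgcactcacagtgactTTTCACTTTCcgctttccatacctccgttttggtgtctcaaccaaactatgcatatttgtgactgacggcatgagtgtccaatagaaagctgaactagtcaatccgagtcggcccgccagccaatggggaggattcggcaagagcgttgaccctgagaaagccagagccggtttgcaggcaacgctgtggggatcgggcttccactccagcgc
Psma2: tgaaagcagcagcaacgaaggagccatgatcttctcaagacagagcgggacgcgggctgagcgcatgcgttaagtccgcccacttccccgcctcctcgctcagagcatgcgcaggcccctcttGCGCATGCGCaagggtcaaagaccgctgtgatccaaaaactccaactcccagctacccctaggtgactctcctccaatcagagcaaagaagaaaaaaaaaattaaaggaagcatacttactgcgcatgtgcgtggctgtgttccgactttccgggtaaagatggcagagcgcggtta
Counted from the start of transcription, the match began at position 9 in Psme1, -163 in Psmb3 and -127 in Psma2. Both strands were searched, and overlap with other motifs was not examined.

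Of the 45 genes 37 had an entry in the RefSeq promoter table, with 39 promoters. The interferon-stimulated response element core was in 5 of them (12.8%) beside 3.44% of all 32851 promoters of the same length, in Psmb3, Psmd4, Psme1, Psmg4 and Psmd9. At day 150 the genotype difference was 0.25 for Psme1 but 0.00 for Psmb3 and Psmd4, 0.04 for Psmg4 and -0.03 for Psmd9. Whether the match bears on the Psme1 difference was not tested. The nuclear respiratory factor core was in 7 (17.9% beside 4.6%), those of Psma2, Psma3, Psma4, Psmc4, Psmc5, Psmd14 and Psmg1. The ETS core CCGGAAG was in 15 (38.5% beside 8.86%), and Psma6 was the only gene of the alpha and beta rings among them. The GC box GGGCGG was in 22 (56.4% beside 35.7%), and the antioxidant response core TGACNNNGC in 6 (15.4% beside 12.4%). CCAAT was in 14 (35.9% beside 37.4%) and TATAAA in 3 (7.69% beside 13.6%). A match is a stretch of letters and not a shown binding site.

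Of the 8 alpha ring genes 6 were higher in TgCRND8 at day 70 (median 0.0148) and 2 at day 80 (median -0.0412), with intervals that reached -0.33 and 0.33. At day 150, 2 were higher and 6 lower, from -0.06 (Psma3) to 0.02 (Psma7 and Psma8), with a median of -0.0196. Psma7, whose product lines the entrance ring, read 8.81, 8.83, 8.98 and 9.1 in the day 150 controls. TgCRND8 of that age read 8.75, 9.01, 9.07 and 8.97, within the range of the controls except for the lowest array. Its difference was 0.02 (95% interval -0.23 to 0.28; adjusted p = 0.999 by limma). Psma1, Psma2, Psma4, Psma5 and Psma6 differed by -0.02, -0.03, -0.05, -0.01 and -0.02. At day 70 Psma1 and Psma3 were 0.09 and 0.10 higher, and at day 80 Psma6 was 0.09 lower (-0.09). Psma8 differed by -0.11 at day 70 and 0.08 at day 80. Psma7's day 70 arrays read 8.78, 8.95, 9.31 and 9 in controls and 8.76, 9, 9.1 and 8.99 in TgCRND8. The day 80 arrays read 8.75, 8.89, 9.28 and 9.11 in controls and 8.85, 8.98, 9.22 and 8.66 in TgCRND8. The groups overlapped at both ages.

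The beta ring had 3 of 7 genes higher and 4 lower at day 150, with a median of -0.0122. At that age Psmb5, the chymotrypsin-like subunit, differed by 0.01 (95% interval -0.11 to 0.14), Psmb6, the caspase-like subunit, by -0.01, and Psmb7, the trypsin-like subunit, by -0.09. At days 70 and 80 Psmb5 differed by -0.01 and 0.00. The non-catalytic Psmb1, Psmb3 and Psmb4 differed by 0.02, 0.00 and -0.01 at day 150. Psmb2 had the smallest unadjusted p of the ring for the mean over ages (0.04; 95% interval -0.05 to 0.13; adjusted p = 1 by limma). Its day 70 arrays read 8.54, 8.63, 8.52 and 8.56 in controls and 8.61, 8.73, 8.69 and 8.65 in TgCRND8, so only the highest control reached into the TgCRND8 range. At day 150 the groups overlapped, at 8.51, 8.61, 8.81 and 8.74 in controls and 8.63, 8.63, 8.57 and 8.64 in TgCRND8. Psmb2's day 80 arrays read 8.53, 8.66, 8.59 and 8.56 in controls and 8.5, 8.6, 8.87 and 8.66 in TgCRND8. These overlapped as well.

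The ATPase genes of the cap had small differences of either sign. All 6 were lower in TgCRND8 at day 70 (median -0.0444), 4 of 6 were higher at day 80 (median 0.0323) and 5 of 6 at day 150 (median 0.0384). All 5 oligodendrocyte markers measured were lower in TgCRND8 at day 70 as well (median -0.168), their mean being 10.2 to 10.25 in controls and 9.94 to 10.14 in TgCRND8, without overlap. By limma 0 of the 5 passed (0% of all genes), and 1, Mag, had an unadjusted p under 0.05 (3.25% of all genes). The ATPase mean at day 70 overlapped, at 9.24 to 9.39 in controls and 9.24 to 9.32 in TgCRND8. The part of oligodendrocytes in the ATPase differences was not tested. Psmc3, the ATPase with the smallest unadjusted p over all ages, read 9.28, 9.41, 9.2 and 9.42 in the day 150 controls and 9.32, 9.32, 9.25 and 9.39 in TgCRND8. The TgCRND8 range lay inside that of the controls, and the difference was -0.01 (95% interval -0.16 to 0.15; adjusted p = 0.999 by limma). Psmc3's day 70 arrays read 9.25, 9.32, 9.39 and 9.52 in controls and 9.39, 9.41, 9.35 and 9.31 in TgCRND8. The day 80 arrays read 9.32, 9.35, 9.38 and 9.32 in controls and 9.39, 9.11, 9.39 and 9.19 in TgCRND8. The groups overlapped at these ages. Psmc1, Psmc2, Psmc4, Psmc5 and Psmc6 were higher by 0.04, 0.03, 0.07, 0.03 and 0.08 at day 150. By limma 0 of the 6 passed at any age, and 0 had an unadjusted p under 0.05.

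Among the 11 non-ATPase cap genes the day 150 differences ran from -0.06 (Psmd6) to 0.15 (Psmd7), with a median of 0.0274. Psmd1, a large scaffold of the base that binds ubiquitin receptors, was 0.12 higher at day 150 (95% interval -0.03 to 0.27; adjusted p = 0.999 by limma). Psmd7, the partner of the deubiquitinase Psmd14 in the lid, was 0.15 higher (95% interval -0.05 to 0.35). Its dimmer probe sets differed by -0.03 and -0.22. Psmd14 itself differed by -0.05 and the ubiquitin receptor gene Psmd4 by 0.00. The base scaffold Psmd2 differed by -0.01, and the lid genes Psmd3, Psmd8, Psmd11, Psmd12 and Psmd13 by 0.03, 0.06, 0.04, 0.05 and 0.00. Psmd13 had the smallest unadjusted p of the class over all ages (0.05; 95% interval -0.05 to 0.14; adjusted p = 1 by limma). It read 7.6, 7.68, 7.47 and 7.73 in day 150 controls and 7.58, 7.53, 7.74 and 7.62 in TgCRND8, which overlapped. Psmd13's day 70 arrays read 7.67, 7.83, 7.72 and 7.71 in controls and 7.82, 7.74, 7.83 and 7.8 in TgCRND8. The day 80 arrays read 7.58, 7.58, 7.86 and 7.8 in controls and 7.67, 7.89, 7.85 and 7.73 in TgCRND8. The groups overlapped at each age.

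The assembly chaperones, which hold subunits together until the particle is complete, included the gene whose genotype difference moved most between ages. Psmg1, which acts in a dimer that assembles the alpha ring, had the smallest unadjusted p of the members at day 70. It then read 7.33, 7.12, 7.45 and 7.34 in controls and 7.1, 7.13, 7.21 and 7.16 in TgCRND8. The lowest control lay among the TgCRND8 arrays. The difference was -0.16 (95% interval -0.36 to 0.03; unadjusted p = 0.0989, adjusted p = 1 by limma). At day 80 it was -0.11, with controls at 7.08, 7.3, 7.17 and 7.53 and TgCRND8 at 7.15, 7.1, 7.33 and 7.06. At day 150 it was 0.14 in the other direction, with controls at 7.1, 6.86, 7.13 and 7.24 and TgCRND8 at 7.22, 7.12, 7.19 and 7.35.

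The change of the genotype difference at day 150 against the mean of days 70 and 80 was 0.28 for Psmg1 (95% interval 0.04 to 0.51; unadjusted p = 0.0255, adjusted p = 0.837 by limma), and it did not pass. For this change 0 of the 45 genes passed (0.011% of all genes), and 1 had an unadjusted p under 0.05, beside 5.75% of all genes. Psmg2, which pairs with Psmg1, differed by -0.11, -0.11 and 0.00 at days 70, 80 and 150. Its day 80 arrays were 6.41, 6.44, 6.22 and 6.08 in controls and 6.21, 6.01, 6.22 and 6.25 in TgCRND8, which overlapped. Psmg2's day 70 arrays read 6.4, 6.42, 6.19 and 6.47 in controls and 6.25, 6.47, 6.37 and 5.96 in TgCRND8. The day 150 arrays read 6.2, 6.21, 6.33 and 6.46 in controls and 6.22, 6.29, 6.27 and 6.4 in TgCRND8. No group was separate from its partner. Psmg3 and Psmg4, another chaperone pair, differed by 0.04 each at day 150, and by -0.08 and -0.12 at day 80. The cap chaperones Psmd5, Psmd9 and Psmd10 differed by -0.02, -0.03 and 0.07 at day 150.

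Age was compared within each genotype, using the same arrays as the genotype comparisons. In controls, between day 70 and day 150, all 6 ATPase genes were lower (median -0.102), as were 8 of 11 non-ATPase genes (median -0.0712; Psmd3, Psmd6 and Psmd14 were not) and all 7 assembly genes (median -0.0634). Class means per array overlapped between these ages, at 9.24 to 9.39 (day 70) and 9.18 to 9.29 (day 150) for the ATPases. For the non-ATPases they were 8.9 to 8.99 and 8.8 to 8.91, and for the assembly genes 6.69 to 6.85 and 6.57 to 6.76. Of the alpha genes 4 of 8 were lower (median 0.0186), and of the beta genes 4 of 7 (median -0.00549). Over the 45 genes 31 were lower, with a median of -0.0364 beside -0.00337 for all genes. By limma with Benjamini-Hochberg adjustment 0 passed (0.022% of all genes), and 5 had an unadjusted p under 0.05, 11.1% beside 7.99% of all genes. All 5 were lower at day 150: Psmc4, Psmd7, Psmd12, Psmg1 and Psmg3.

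Psmc4, an ATPase of the base, was the member with the smallest p of that comparison. It read 8.58, 8.45, 8.54 and 8.64 in controls of day 70 and 8.32, 8.26, 8.42 and 8.43 in those of day 150. All day 150 arrays lay below all day 70 arrays, as for 1 of the 45 genes and 2.53% of all genes, and for 0 of the 45 (2.04% of all genes) they lay above. The difference was -0.20 (standard error 0.0732; 95% interval -0.35 to -0.05; adjusted p = 0.539 by limma). Psmg1 differed by -0.23, Psmd7 by -0.21, Psmd12 by -0.19 and Psmg3 by -0.18, and their groups overlapped. Markers of oligodendrocytes moved with age as well, the mean of the 5 measured being 10.2 to 10.25 in controls of day 70 and 9.86 to 10 in those of day 150. Their part in the cap differences was not tested.

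The same step was read in TgCRND8 mice. From day 70 to day 150, 30 of the 45 genes were lower, with a median of -0.0168, and class medians were -0.00759 for ATPases, -0.0174 for non-ATPases, -0.00415 for assembly genes, -0.021 for the alpha and -0.0337 for the beta ring. Psmc4 differed by -0.01, with TgCRND8 at 8.56, 8.28, 8.54 and 8.38 on day 70 and 8.4, 8.37, 8.43 and 8.5 on day 150. By limma 0 of the 45 passed (0.0879% of all genes), and 1 had an unadjusted p under 0.05 (2.64% of all genes). That member was Psmd13, a lid gene, which read 7.82, 7.74, 7.83 and 7.8 on day 70 and 7.58, 7.53, 7.74 and 7.62 on day 150 (-0.18; 95% interval -0.34 to -0.02; adjusted p = 1 by limma). With the mean of all its probe sets the Psmd13 difference was -0.07. Whether the age difference of any member differs between the genotypes from day 70 to day 150 was not tested by itself.

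The other steps of age gave as few calls. From day 80 to day 150 in controls 0 passed by limma (0% of all genes), and 0 had an unadjusted p under 0.05 (3.41%). From day 70 to day 80 in controls 0 passed (0%), and 0 had an unadjusted p under 0.05 (3.24%). In TgCRND8, 0 passed from day 80 to day 150 (0.022%), where Psmd13 again was the 1 gene at an unadjusted p under 0.05 (6.76%), and 0 from day 70 to day 80 (0%), with 0 at an unadjusted p under 0.05 (5.72%). Medians of the 45 genes were -0.0152, -0.0158, 0.00504 and -0.0331 in that order.

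**Figure D3:**
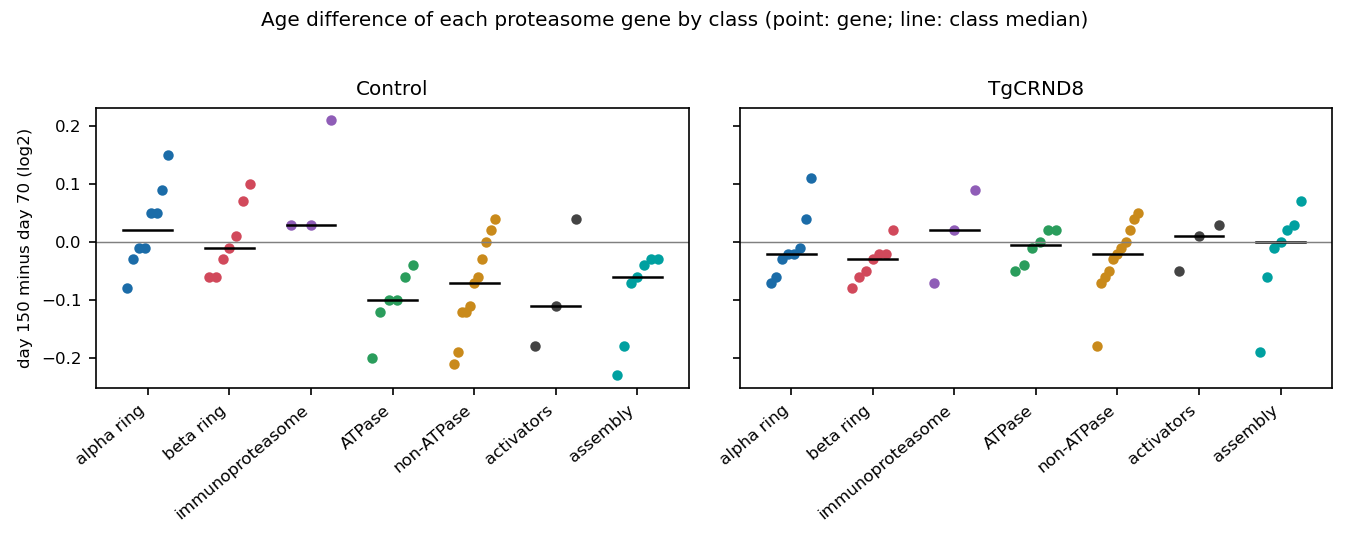
Difference between day 150 and day 70 (log2, y axis) of each gene (points) by class (x axis), in controls and in TgCRND8, with class medians as lines. In controls all 6 ATPase and all 7 assembly genes lie below 0, the ATPase median being -0.102, and in TgCRND8 the class medians lie near 0.

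Some members varied with the replicate number in the labels, a term tested after the values were seen. The labels do not say what the number stands for. With the 6 groups and the replicate number in 1 limma fit, 10 of the 45 genes passed for the number (22.2%) beside 7.23% of all genes. They were Psma2, Psma3, Psma4 and Psma7 of the alpha ring, Psmb1 and Psmb3 of the beta ring, the ATPase Psmc6, the lid gene Psmd11, the activator Psme4 and the chaperone Psmg4. The arrays numbered 1 were low and those numbered 3 were high for all but Psmd11 and Psme4, which ran the other way. Psmb3 lay 0.23 below its group means in arrays numbered 1 (-0.23) and 0.23 above in those numbered 3, with adjusted p = 0.0149 by limma, and Psma7 lay at -0.18 and 0.19 (adjusted p = 0.0156).

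Psma7 is an example, with a genotype difference of 0.02 at day 150. Its 6 arrays numbered 1 read 8.78, 8.75 and 8.81 in controls and 8.76, 8.85 and 8.75 in TgCRND8, in order of age. Those numbered 3 read 9.31, 9.28 and 8.98 in controls and 9.1, 9.22 and 9.07 in TgCRND8. All arrays numbered 3 lay above all those numbered 1. Over the alpha ring the mean lay at -0.112 in arrays numbered 1 and 0.106 in those numbered 3, and over the beta ring at -0.0877 and 0.0727, in the same order in all 6 groups. The assembly genes lay at -0.0704 and 0.0664 and the ATPases at -0.0298 and 0.0531, also in that order in all 6 groups. The mean of the non-ATPase cap genes moved less, at -0.0196 and 0.00871, in that order in 5 of the 6 groups, and its genes ran in both directions. Psmd11 lay at 0.06 and -0.16, and Psmd6 at -0.07 and 0.06. The calls rested on single arrays: without control array number 3 of day 70, 0 of the 45 passed for the replicate number, beside 290 of all genes in place of 1316. Without control array number 3 of day 80, only Psma3 passed, and without TgCRND8 array number 3 of day 80, Psma3, Psma4 and Psmb3. Without control array number 1 of day 80 or TgCRND8 array number 3 of day 150, 5 passed, and without number 1 of the day 70 controls or of the day 150 TgCRND8 mice, 6. Cell type markers moved with the number too. In arrays numbered 1 and 3 the microglia mean lay at -0.113 and 0.108 and the choroid plexus mean at 0.204 and -0.213. The endothelium mean lay at 0.131 and -0.129 and the neuron mean at 0.0843 and -0.0766. Astrocyte and oligodendrocyte means moved less, at -0.0412 and 0.00658 and at 0.0348 and 0.00808. The part of these cell types was not tested.

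**Figure D4:**
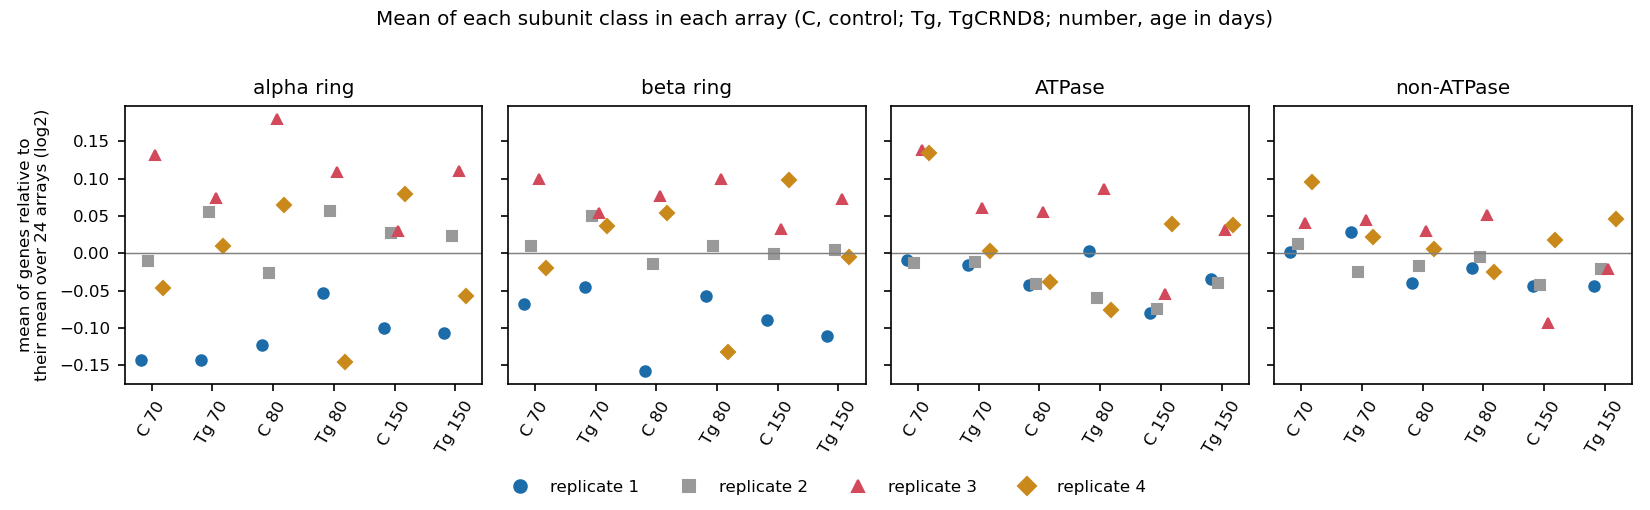
Mean log2 signal of the genes of 4 classes in each of 24 arrays relative to the mean over all arrays (y axis), by genotype and age (x axis), with the replicate number as colour and shape. In the alpha and beta rings and the ATPases the arrays numbered 1 lie below those numbered 3 in all 6 groups. The mean of the non-ATPase genes has this order in 5 of the 6 groups, with a smaller shift.

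Genes around the proteasome were read from lists named for their function. Of the 10 proteasome partners measured, among them the inhibitor Psmf1 (-0.03), the adaptor Ecpas (-0.14) and Txnl1 (0.09), 4 were higher and 6 lower at day 150, with a median of -0.0125. The 13 ubiquitin genes and enzymes had 8 higher and a median of 0.0108. Uchl1, the neuronal deubiquitinase, was 0.12 higher and the chaperone-linked ligase Stub1 0.07, and the ligase subunit gene Skp1 differed by -0.04. Of the 10 genes of the unfoldase p97 and the shuttle factors 9 were higher, with a median of 0.0481, while 1 of the 10 was higher at day 70 (median -0.0541) and 2 at day 80 (median -0.0259). Vcp, the unfoldase itself, was 0.14 higher, Ufd1, its cofactor, 0.10 and Rad23b, a shuttle factor, 0.08 at day 150. None of the 10, 13 and 10 genes of these lists passed at day 150 by limma with Benjamini-Hochberg adjustment, beside 0.121% of all genes, and 0 had an unadjusted p under 0.05.

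The transcription factors known to drive proteasome genes were described in the same way. Among 13 genes of the NRF1 and NRF2 pathway, which induces subunits when the proteasome is blocked, 7 were higher at day 150 (median 0.0117), 0 passed and 1 had an unadjusted p under 0.05 by limma. Nfe2l2, the gene of NRF2, was 0.33 higher (unadjusted p = 0.014, adjusted p = 0.999 by limma), and it was -0.21 at day 70. Txnrd1 was 0.17 higher and Ngly1 0.11. Nqo1, a target gene of NRF2, was 0.31 higher at day 70 (adjusted p = 1 by limma) and differed by -0.02 at day 150. Hmox1 differed by -0.03 at day 150, and Nfe2l1, the gene of NRF1, by -0.02. Among 20 genes of MHC class I and of interferon gamma signalling, 14 were higher at day 150 with a median of 0.0662. Of these 20 genes 0 passed by limma (0.121% of all genes), and 3, all higher, had an unadjusted p under 0.05, which is 15% beside 4.38% of all genes. At day 70, 5 were higher and 15 lower (median -0.0288), and at day 80, 13 were higher (median 0.0642). At day 150 B2m, the light chain of MHC class I, was 0.35 higher (adjusted p = 0.102 by limma). Irf8, a microglial interferon factor, was 0.52 higher (adjusted p = 0.126 by limma), and Nlrc5, the activator of MHC class I genes, 0.25 (adjusted p = 0.999). In the same list Irf1 differed by -0.06, Gbp2 by -0.03, Gbp3 by 0.02, Iigp1 by -0.08 and Ifit3 by 0.00. Nlrc5 lay below the lower quartile in 21 of the 24 arrays, Gbp2 in 19 and Gbp3 in 24. Their differences, with Nlrc5 among the 3 genes counted above, describe signals near the bottom of the array. Averaged over the 20 genes, arrays of day 150 lay between 5.69 and 5.76 for controls and between 5.75 and 5.89 for TgCRND8, so the ranges overlapped.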

How the data were processed

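The authors deposited log2 signals per probe set for 24 arrays. The scale is read from the values; no source names the normalization. Array medians ran from 4.28 to 4.38. Column names matched the labels for every sample (0 unmatched). Of 45101 probe sets, 64 array controls were dropped, 34945 carried 1 gene symbol in the platform annotation, 932 carried several and 9160 none. 1 gene of the family is not reported here.

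One limma model (R 4.3.3, limma 3.58.1) was fitted to 18193 genes with a mean for each of the 6 groups (18 residual degrees of freedom, 7.47 prior). Benjamini-Hochberg adjustment ran over all genes in each comparison. Intervals are 95%, from the moderated statistic. The code was tested on simulated data. Values in every array are given for the member with the smallest p at each age and, over all ages, in each class, and for Psmb9, Psmb10 and Psme1. Psmc4 and the replicate-number genes were chosen after their values were seen. The members and lists were chosen with earlier results of these data known. Alternatives changed the normalization (quantile, or centring on medians), the filter (dropping the lowest 40% by mean), the probe sets (their mean), the variance model, array weights, the threshold (0.10), the samples fitted, and the covariates (a replicate block; the Xist level), or left out each array. Same-numbered arrays of the day 150 controls and TgCRND8 mice deviated together (correlations 0.256, 0.194, 0.137 and 0.217), so the numbers pair these groups by the rule that every pair exceeds 0.1. They did not pair the genotypes at days 70 and 80. TgCRND8 mice of day 70 and controls of day 80 also met the rule (0.175, 0.178, 0.102 and 0.171), though they differ in age and genotype. Meeting the rule thus does not show that mice were matched. Figures used Python 3.11.15 and matplotlib 3.10.9.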

Additional observations from a re-analysis of the deposited data

Results flagged for a closer look

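In 2 of 66 groups of 4 arrays tested (the named genes and the mean of all 45, in each of the 6 groups) 1 array stood apart from the other 3 by Dixon's criterion, where chance gives about 1 in 20. For Psmg2 the lowest TgCRND8 array of day 80 read 6.01, with the next at 6.21 and the highest at 6.25. For Psmb2 the lowest TgCRND8 array of day 150 read 8.57, with the others between 8.63 and 8.64.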

How the results depend on the processing

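The count of proteasome genes past the threshold was 0 in each of the 11 comparisons and stayed 0 under all 228 alternatives run for them. The smallest adjusted p of a member in any of these fits was 0.281 by limma, reached with 1 array left out in the control comparison of days 150 and 70 and in the TgCRND8 comparison of days 80 and 70. The Psme1 difference at day 150 was between 0.21 and 0.29, with adjusted p from 0.361 to 1 by limma. The median genotype difference of the members at each age and over ages moved by less than the spread between replicates (SD 0.0565). Without the dimmest 40% of genes Psma8, Psmb9 and Psmb11 were not tested. The number of genes that passed for the replicate number, a result added after the data were seen, was 6 with the mean of all probe sets, 0 to 12 with 1 array left out and 14 with array weights; the cause was not tested.

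With the replicate block, 0 members passed in each of the 11 comparisons, Psme1 at day 150 had adjusted p = 0.48 by limma, and 31 of all genes passed at day 150 in place of 22. Deviations of same-numbered arrays correlated from -0.371 to 0.612, above 0.1 in 35 of 60 pairs. At day 150 same-numbered arrays of both genotypes correlated above 0.1, with 4 of 4 arrays correlating best with their own number. The block changed no call of a member there or in the other 10 comparisons. Signal near background limits what Psma8 and Psmb11 can show, and the signal of Psmb9 was low as well.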

Other observations

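Probe sets of 1 gene did not always point the same way. Psmd9, a cap chaperone, differed between genotypes at day 150 by -0.03 in the probe set used and by -0.23 and -0.17 in its dimmer ones. Psme4 differed by 0.06 in the probe set used and by -0.14 to 0.06 in its others. For Psmc4 at day 80 the difference was 0.04 in the probe set used and -0.25 in the other, of near-equal signal (8.44 and 8.34). Psmb3 gave the same picture in both of its probe sets, at 0.00 and 0.02 on day 150. The differences were not tested against each other.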
